A study of Mus musculus with 20 samples.

Results

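The genes described here are those of LIF and BMP signalling, the pathways that hold mouse embryonic stem cells (ESCs) in self-renewal. The members were 10 of the 23284 genes in the RIP-Seq files, listed by symbol: *Lifr*, *Il6st*, *Jak1*, *Stat3* and *Socs3* of the LIF arm, and *Bmp4*, *Bmpr1a*, *Id1*, *Id2* and *Id3* of the BMP arm. All 10 passed the filter on low counts. They were followed in 3 lines of ESCs that carried knock-in tags, and the question was how much of each transcript came down with the tagged Tet protein and whether this depended on the RNA-binding domain of Tet2.

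In the Tet1-KI line the endogenous Tet1 protein, and in the Tet2-KI line the endogenous Tet2 protein, carried Flag, HA and Twin-Strep tags at its C-terminus. In the Tet2dRBD-KI line the tagged Tet2 lacked its RNA-binding domain. All lines were made by CRISPR in wild-type ESCs, were grown on gelatin with 15% FBS and 1000 unit/ml LIF, and were isolated as picked clones, whose number is not given in the sources used here. RNA precipitated with an anti-Flag antibody from cytoplasmic extract (IP) and total RNA (input) were sequenced in 2 Tet1 pairs, 4 Tet2 pairs and 4 Tet2dRBD pairs. No IP from untagged cells was analysed here. Because IP and input also differ in the fraction of the cell they came from, binding and fractionation cannot be told apart in an IP to input ratio. The study describes at least a pair of biological replicates for each RIP-Seq, but neither it nor the labels say which numbers were separate cultures, so the p-values below measure the spread between these samples, part of which may be technical.

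LIF binds a receptor made of Lifr and the shared signal transducer gp130, encoded by *Il6st*, and the associated Janus kinase Jak1 phosphorylates Stat3, which enters the nucleus and activates transcription. Socs3 is induced by Stat3 and shuts the receptor complex down again. BMP4 signals through receptors such as Bmpr1a to SMAD proteins, which switch on the *Id* genes, and Id proteins hold back differentiation by binding bHLH transcription factors so that these cannot bind DNA.

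Depth ran from 21078995 to 37576638 expected counts a library over the 20 libraries. The numbering of the deposited data places them in 3 library sets, which the labels do not name. Set 1 holds replicate 1 of Tet2 and Tet2dRBD, set 2 holds replicate 2 of both, and set 3 holds replicates 3 and 4 of both and all Tet1 libraries. Pluripotency markers were high in every input, with *Pou5f1* between 2000 and 3191 TPM (a transcript level scaled for its length and for library size). The inputs of set 1 stood apart from the others. Over 6 primitive endoderm markers the summed TPM averaged 130 in set 1, 63.3 in set 2 and 37.5 in set 3, and over 6 trophoblast markers it averaged 132, 48.5 and 22.6. The lines differed as well. Within set 3 the primitive endoderm sum ran from 9.67 TPM, in a Tet2 input, to 61.78 TPM. It was 42.2 to 45.0 TPM in the Tet1 inputs and at least 56.5 TPM in every Tet2dRBD input. The defining trophoblast genes *Cdx2* and *Elf5* stayed at or below 0.33 and 0.09 TPM in all inputs, while *Tfap2c* and *Krt7* reached 94.9 and 42.7 TPM.

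The 3 *Id* genes are paralogs with closely related coding sequences, which matters for reading their counts because the members called in the Tet2 IP were these 3, in different directions. The stretches below are the 30 coding bases in which the 3 genes are most alike. They lie in 1 exon of each gene in the coding sequence, are written 5′ to 3′ on the gene's own strand from the mm9 genome, and capitals mark the 24 bases that are the same in all 3.
Id1, chr2:152562330-152562359, plus strand, coding bases 254 to 283 from the start codon: TGGAgATCCTGCAGCatGTaATcGAcTACA
Id2, chr12:25780662-25780691, minus strand, coding bases 185 to 214: TGGAaATCCTGCAGCacGTcATcGAtTACA
Id3, chr4:135699993-135700022, plus strand, coding bases 200 to 229: TGGAaATCCTGCAGCgtGTcATaGAcTACA
The longest run of identical bases between the annotated transcripts was 11 bases for *Id1* and *Id2*, 12 for *Id1* and *Id3* and 19 for *Id2* and *Id3*. The difference between transcript length and effective length in the deposited tables corresponds to sequenced fragments or reads of 68.5 to 69.5 bases. The runs come from annotated transcripts that differ in length from those counted, for *Id3* 1278 against 953 bases. Whether reads were assigned to the wrong *Id* gene was not tested. 

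In input, the Stat3 feedback gene *Socs3* and the BMP target *Id1* were the most abundant members, at 152 ± 43.0 and 146 ± 68.4 TPM (mean ± SD over the 10 inputs of all lines). *Bmp4* followed at 33.8 ± 17.1 TPM, then *Id3* at 31.8 ± 15.4, *Stat3* at 26.5 ± 7.97 and *Id2* at 24.6 ± 8.77. The receptors were lower, *Bmpr1a* at 15.6 ± 7.51 TPM, *Il6st* at 15.4 ± 5.58 and *Lifr* at 8.59 ± 3.61, and the kinase *Jak1* was lowest at 7.18 ± 3.11. *Socs3* was thus 21.2-fold above *Jak1* in mean TPM, while the median of the 11784 expressed genes, those whose inputs averaged 1 TPM or more, was 13.04 TPM. Neighbours in this order overlapped in range throughout, and *Socs3*, from 109 to 218 TPM, was the member whose inputs all lay above every input of the 8 genes from *Bmp4* down.

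**Figure D1:**
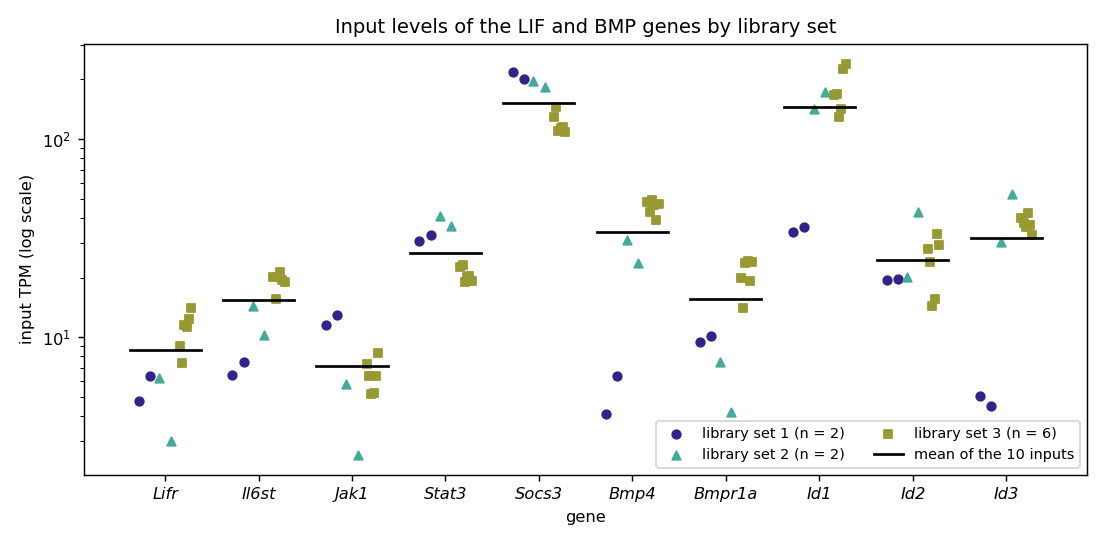
Input level of each gene in TPM on a log axis. Each point is 1 of the 10 inputs, its shape and colour give the library set, and the black line is the mean of all 10. Both inputs of set 1 lie far below the others for *Bmp4*, *Id1* and *Id3* and above all set 3 inputs for *Socs3*, *Stat3* and *Jak1*.

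The widest differences between library sets fell on 3 genes of the BMP arm. *Bmp4* averaged 5.25 TPM in the inputs of set 1 and 45.5 TPM in those of set 3, an 8.67-fold difference. *Id3* averaged 4.77 and 37.6 TPM, 7.88-fold apart, and *Id1* 35.1 and 179 TPM, 5.11-fold apart. The inputs of set 1 and set 3 did not overlap in 9 of the 10 members, *Id2* being the exception, and in 55.4% of all tested genes. The receptors were also lower in set 1, *Il6st* by 2.77-fold, *Bmpr1a* by 2.12-fold and *Lifr* by 1.97-fold. The remaining LIF genes ran the other way, with *Jak1* 1.89-fold, *Socs3* 1.74-fold and *Stat3* 1.53-fold higher in set 1 than in set 3. *Id2* differed least, 1.23-fold. Set 1 is 2 inputs with the highest mean primitive endoderm, trophoblast and early germ layer sums (the last 48.3 TPM against 46.0 in set 2 and 26.3 in set 3) and the lowest mean ESC marker sum (14658 against 17820 TPM in set 3). Its mean fibroblast sum was also the lowest (16.7 TPM against 55.8 in set 2 and 33.7 in set 3). Of the early germ layer genes, *T*, *Mixl1*, *Fgf5*, *Pax6* and *Neurog2* stayed at or below 0.97 TPM in all inputs, while *Otx2* and *Sox1* reached 35.8 and 19.7 TPM. The part of these marker differences in the member levels was not tested, and in bulk RNA fewer cells of a type and less RNA per cell cannot be told apart.

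Between lines, input levels were compared with edgeR with the library set as a block. The lines also differed in primitive endoderm markers within set 3, whose part in these levels was not tested. Against Tet2, no member passed an adjusted p of 0.05 in Tet2dRBD inputs, where 3.14% of 13310 genes passed. At an unadjusted p under 0.05 there were 2 members, *Id2* and *Id1*. The *Id2* inputs stood at 19.5, 20.2, 14.4 and 15.6 TPM in Tet2 replicates 1 to 4 and at 19.7, 42.8, 33.3 and 29.1 TPM in Tet2dRBD, so that the lines were alike in replicate 1 and apart in the other numbers. The fitted log2 difference was 0.80 (SE 0.19, adjusted p = 0.0582). For *Id1* it was 0.49 (SE 0.12, adjusted p = 0.0580). DESeq2 called both higher in Tet2dRBD, and so did edgeR without Tet2 replicate 1 (adjusted p = 0.00529 for *Id2* and 0.0132 for *Id1*) or without Tet2dRBD replicate 1 (0.00477 and 0.0132), while limma on log2(TPM + 1) called *Id2* alone. Without Tet2 or Tet2dRBD replicate 2, *Id1* alone was called (adjusted p = 0.0335 and 0.0310).

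In Tet1 inputs, where 31.5% of 13310 genes differed from Tet2, the 1 member called was the BMP receptor *Bmpr1a* with a fitted log2 difference of -0.60 (SE 0.19, adjusted p = 0.0394). Its input levels were 19.8 and 14.0 TPM in Tet1 and 9.47, 7.47, 23.6 and 24.4 TPM in Tet2, so the raw levels overlapped, and with the set as a block the difference rests on library set 3. DESeq2 called it too, and limma on log2(TPM + 1) did not (adjusted p = 0.0804), calling *Socs3* higher instead (0.26, adjusted p = 0.0263). The edgeR call was lost without Tet1 replicate 2 (adjusted p = 0.278), Tet2 replicate 3 (0.0916), Tet2 replicate 4 (0.0883) or Tet2dRBD replicate 3 (0.0549). *Lifr* showed a log2 difference of -0.69 (SE 0.26, adjusted p = 0.0680), which passed with DESeq2 (adjusted p = 0.0173) and with edgeR without Tet2 replicate 2 (adjusted p = 0.00310) or Tet2dRBD replicate 2 (0.00518). *Id2* showed 0.61 (SE 0.25, adjusted p = 0.0923) and passed without replicate 1 of Tet2 (adjusted p = 0.00559) or Tet2dRBD (0.00528).

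The IP was then set against its own input in each pair as log2(IP/input), computed from TPM with the deposited pseudocount of 1. Above input in every pair were 7 of the 10 members in Tet1 (2 pairs), where 50.9% of 13710 tested genes were, 6 of 10 in Tet2 (4 pairs), where 46.5% were, and 3 of 10 in Tet2dRBD (4 pairs), where 31.8% were. All genes shift on this scale. Each pair was therefore also centred on the median ratio of the expressed genes, a median that lay between 0.01 and 0.38, after which 6 members were above 0 in every Tet1 pair, where 41.9% of tested genes were, 5 in every Tet2 pair, where 25.6% were, and 0 in every Tet2dRBD pair, where 18.1% were.

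**Figure D2:**
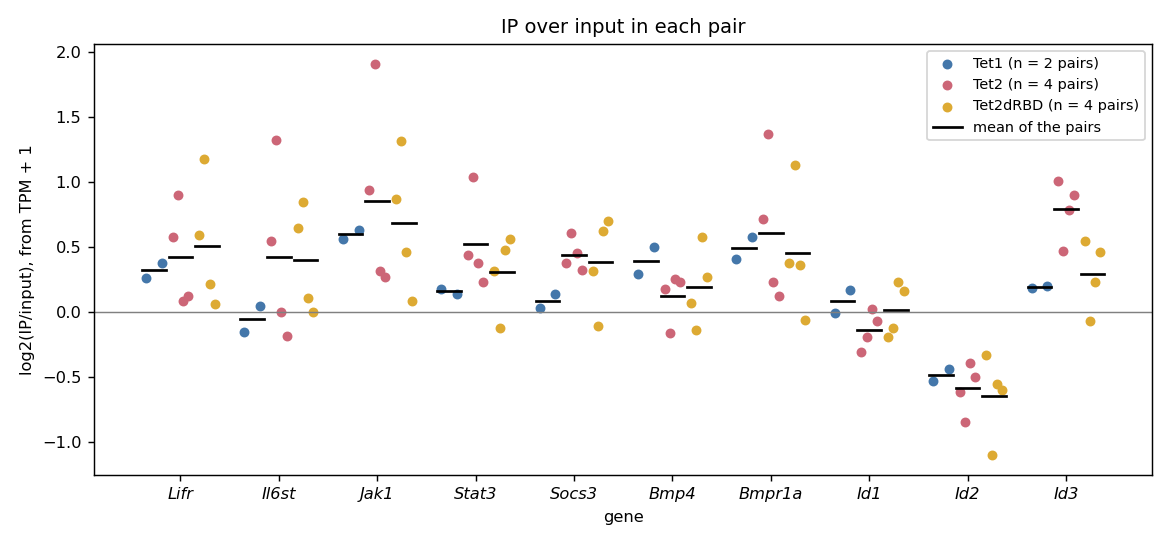
log2(IP/input) of each gene from TPM + 1. Each point is 1 pair of IP and input with the same number, coloured by line (2 Tet1, 4 Tet2 and 4 Tet2dRBD pairs), and black lines are means. All points of *Id2* lie below 0 and all of *Lifr* and *Jak1* above it, and the highest points of *Jak1*, *Bmpr1a* and *Il6st* are those of Tet2 replicate 2.

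The LIF receptor subunit *Lifr* (chr15:7079559-7147489, plus strand, mm9, 19 exons) was above input in 10 of 10 pairs, as 22.4% of tested genes were. Its log2(IP/input) was 0.26 and 0.38 in Tet1, 0.57, 0.90, 0.09 and 0.12 in Tet2, and 0.59, 1.17, 0.21 and 0.06 in Tet2dRBD. The pairs of sets 1 and 2 were high and those of set 3 low in both Tet2 lines, and the 3 lines overlapped. 

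*Il6st* (chr13:113265216-113297068, plus strand, 15 exons), the shared transducer, was at -0.16 and 0.05 in Tet1, at 0.55, 1.32, -0.003 and -0.19 in Tet2, and at 0.64, 0.85, 0.11 and 0.001 in Tet2dRBD. Again sets 1 and 2 were high and set 3 lay near 0. 

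*Jak1* (chr4:100824972-100937887, minus strand, 25 exons), the kinase bound to the receptor, was likewise above input in 10 of 10 pairs. Its log2(IP/input) was 0.56 and 0.63 in Tet1, 0.94, 1.91, 0.31 and 0.27 in Tet2, and 0.87, 1.31, 0.46 and 0.08 in Tet2dRBD. In Tet2 replicate 2 this was 24.4 TPM in IP and 5.78 TPM in input, whereas in Tet2 replicates 3 and 4 IP and input stood at 6.65 and 5.17, and at 6.49 and 5.23 TPM. The Tet1 pairs lay between the high and the low pairs of the other lines.

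The transcription factor *Stat3* (chr11:100746412-100800854, minus strand, 24 exons) stood at 0.18 and 0.14 in Tet1, at 0.44, 1.03, 0.37 and 0.23 in Tet2 and at 0.31, -0.12, 0.48 and 0.56 in Tet2dRBD on the per-pair log2 scale. Its feedback inhibitor *Socs3* (chr11:117827393-117831361, minus strand, 2 exons) stood at 0.03 and 0.14 in Tet1, at 0.38, 0.60, 0.45 and 0.32 in Tet2 and at 0.31, -0.11, 0.62 and 0.70 in Tet2dRBD. For both genes, replicate 2 was the highest Tet2 pair and the only Tet2dRBD pair below input. In both genes all Tet2 pairs lay above both Tet1 pairs, as in 21.6% of tested genes.

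The ligand gene *Bmp4* (chr14:47003195-47010344, minus strand, 4 exons) was above input in 8 of 10 pairs, from -0.16 in Tet2 replicate 2 to 0.57 in Tet2dRBD replicate 3. It stood at 0.29 and 0.50 in Tet1, and the 2 pairs below input were those of replicate 2 in Tet2 and Tet2dRBD. *Bmpr1a* (chr14:35223920-35316527, minus strand, 13 exons), a type I BMP receptor, was at 0.40 and 0.57 in Tet1, at 0.71, 1.37, 0.23 and 0.12 in Tet2, and at 0.38, 1.13, 0.36 and -0.06 in Tet2dRBD. Like *Lifr*, *Il6st* and *Jak1*, it was highest in replicate 2 of both Tet2 lines.

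The *Id* genes separated from each other. *Id2* (chr12:25778666-25780957, minus strand, 3 exons) was below input in 10 of 10 pairs, as 5.59% of tested genes were. In the Tet1 line its IP stood at 18.9 and 17.4 TPM against inputs of 27.9 and 23.95 TPM. In Tet2, the IPs were 12.4, 10.8, 10.7 and 10.7 TPM and the inputs 19.5, 20.2, 14.4 and 15.6 TPM. In Tet2dRBD, the IPs were 15.4, 19.4, 22.4 and 18.8 TPM and the inputs 19.7, 42.8, 33.3 and 29.1 TPM. Within each line every *Id2* IP lay below every input except in Tet2dRBD, where the input of replicate 1 fell among the IPs.

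*Id3* (chr4:135699412-135701670, plus strand, 3 exons) was above input in 9 of 10 pairs. Its IP in Tet2 stood at 11.2, 42.3, 62.7 and 79.5 TPM against inputs of 5.06, 30.3, 36.1 and 42.2 TPM. In Tet2dRBD the IPs were 7.0, 50.1, 43.5 and 45.6 TPM and the inputs 4.48, 52.6, 36.9 and 32.8 TPM. The Tet1 IPs were 45.4 and 43.2 TPM over inputs of 39.9 and 37.6 TPM. The ratio was therefore high in Tet2 and low in the other lines, although Tet2 replicate 2 (0.47) and Tet2dRBD replicate 1 (0.55) crossed.

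*Id1* (chr2:152561987-152563146, plus strand, 2 exons) lay near its input on the TPM scale. In Tet2, IPs of 27.2, 124, 131 and 135 TPM stood against inputs of 34.0, 142, 129 and 142 TPM. In Tet2dRBD, IPs of 31.4, 159, 266 and 269 TPM stood against inputs of 36.1, 173, 227 and 240.5 TPM. In Tet1, IPs of 166 and 190.4 TPM stood against 167 and 169 TPM. The *Id1* level was lowest in replicate 1 of both Tet2 lines in IP and input alike, and the ratio was below 0 in 6 of 10 pairs.

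**Figure D3:**
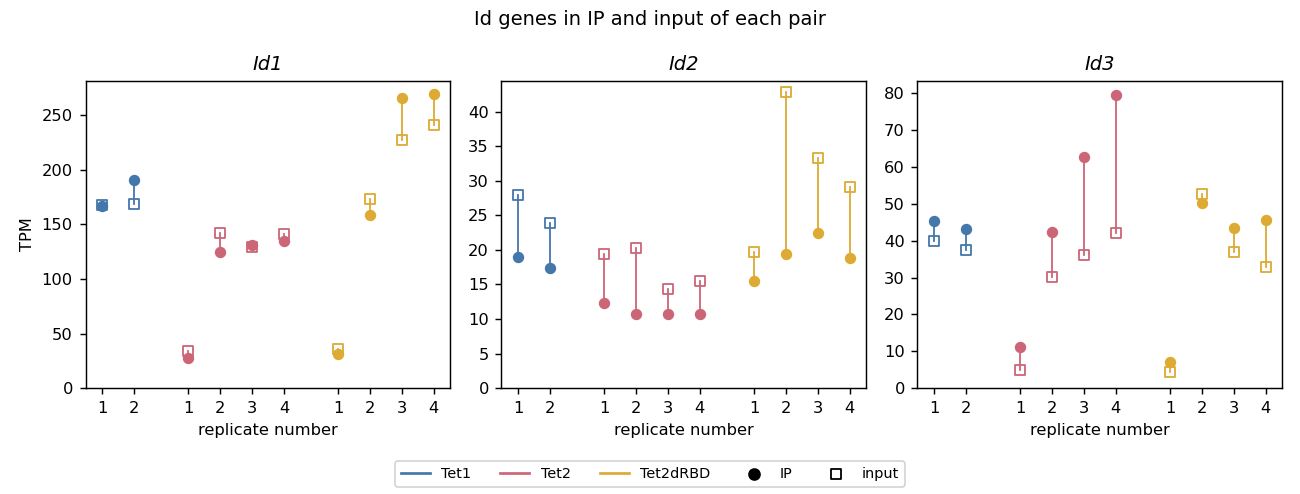
TPM of *Id1*, *Id2* and *Id3* in the IP (filled circles) and the input (open squares) of each pair, with replicate numbers on the horizontal axis and lines coloured by cell line; the vertical axes start at 0 and differ between panels. *Id2* IPs lie under their inputs in all 10 pairs, *Id3* IPs lie above them in all 4 Tet2 pairs, and both replicate 1 pairs are low for *Id1* and *Id3*.

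The counts of IP and input were then compared with edgeR, with a block for each pair. This fit is normalized by TMM, which centres all genes near 0, so that its values are lower than the TPM ratios. The median fitted log2 ratio of all tested genes was -0.04 in Tet1, 0.00 in Tet2 and -0.02 in Tet2dRBD, against 0.08, 0.23 and 0.19 when limma was run on log2(TPM + 1).

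In Tet2 IP, 3 of the 10 members passed, 1 higher and 2 lower, where 33.1% of 13710 genes passed (14.6% higher and 18.5% lower). *Id2* fell by 0.95 on the log2 scale (SE 0.14, adjusted p = 0.000804), a ratio of IP to input of 0.518. *Id1* fell by 0.46 (SE 0.12, adjusted p = 0.0153), and *Id3* rose by 0.51 (SE 0.14, adjusted p = 0.0169), a ratio of 1.42. The members that passed were thus the 3 *Id* genes, a number near the share over all genes. Among the rest, *Jak1* came nearest with 0.62 (SE 0.28, adjusted p = 0.110). The median over the members was 0.17, against 0.00 over all genes.

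The *Id2* call held in each of the 20 alternatives of the Tet2 test. The *Id1* call was lost without Tet2 replicate 1 (log2 -0.33, adjusted p = 0.127), without Tet2 replicate 2 (log2 -0.37, adjusted p = 0.0662) and with limma on log2(TPM + 1), which gave -0.14 (adjusted p = 0.271). The *Id3* call was lost without Tet2 replicate 3 (log2 0.49, adjusted p = 0.0706) or Tet2 replicate 4 (log2 0.42, adjusted p = 0.0779), and with these 2 merged (log2 0.45, adjusted p = 0.0952). With library set 1 left out neither *Id1* (log2 -0.33, adjusted p = 0.0772) nor *Id3* (log2 0.48, adjusted p = 0.0541) passed. The direction split changed with the scaling: limma on log2(TPM + 1) called 6 members, *Id3*, *Jak1*, *Stat3*, *Socs3* and *Bmpr1a* higher and *Id2* lower, beside 4801 genes higher and 1113 lower over all genes.

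In Tet2dRBD IP, 1 of 10 members passed where 19.5% of genes did. This was *Id2* with a log2 value of -0.95 (SE 0.14, adjusted p = 0.00154), the same size as in Tet2. *Id1* stood at -0.26 (SE 0.12, adjusted p = 0.154) and *Id3* at 0.03 (SE 0.14, adjusted p = 0.883). On log2(TPM + 1), limma called *Socs3* higher besides *Id2* (0.38, adjusted p = 0.0410), where 3224 of 13710 genes were called higher and 629 lower.

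In Tet1 IP, edgeR called none of the 10 members, where 5.9% of genes passed. At an unadjusted p under 0.05 there was 1, *Id2*, with -0.66 (SE 0.19, adjusted p = 0.0663). DESeq2 called it and limma called none. It also passed with edgeR without Tet2 replicate 2 (adjusted p = 0.0354) or Tet2dRBD replicate 2 (0.0402), which enter through the shared estimate of spread. *Id3* and *Id1* stood at 0.05 (SE 0.19) and -0.07 (SE 0.17).

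**Figure D4:**
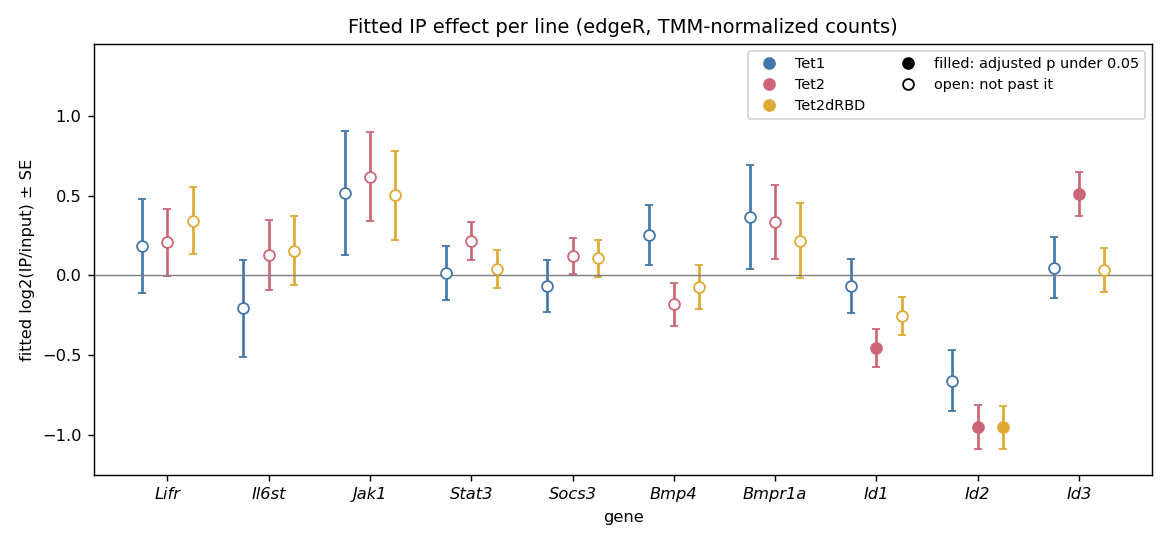
Fitted log2 ratio of IP to input with its standard error for each gene in Tet1 (2 pairs), Tet2 (4 pairs) and Tet2dRBD (4 pairs), from edgeR on TMM-normalized counts. Filled points passed an adjusted p of 0.05: *Id2* in Tet2 and Tet2dRBD at -0.95, and *Id1* (-0.46) and *Id3* (0.51) in Tet2.

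Within library set 3 alone, which holds 2 pairs of each line, the tests called 5 members in Tet2, 4 in Tet2dRBD and 5 in Tet1, where 49.9%, 49.1% and 46.8% of 13379 genes passed. In Tet2 these were *Id1*, *Id2*, *Id3*, *Il6st* and *Socs3*, in Tet2dRBD *Id2*, *Il6st*, *Socs3* and *Stat3*, and in Tet1 *Id2*, *Il6st*, *Jak1*, *Bmp4* and *Bmpr1a*. *Il6st* turned direction there, to -0.31 in Tet2 (adjusted p = 0.00265) and -0.22 in Tet2dRBD (adjusted p = 0.0175), against 0.13 and 0.16 over all pairs. *Socs3* stood at 0.18 in Tet2 (adjusted p = 0.0343) and 0.39 in Tet2dRBD (adjusted p = 0.000542), and *Jak1* at 0.48 in Tet1 (adjusted p = 0.00179).

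The question of the RNA-binding domain was addressed by subtracting the Tet2dRBD IP effect from that of Tet2. With edgeR, 0 of 10 members passed, where 0.0219% of genes did. DESeq2 and limma called none of the members either. At an unadjusted p under 0.05 there was 1, *Id3*, whose IP effect was 0.48 higher in Tet2 (SE 0.20, adjusted p = 1). Over all alternatives its difference stayed between 0.39 and 0.65, with the adjusted p between 0.149 and 1.

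Taken number by number, the log2(IP/input) of *Id3* was higher in Tet2 than in Tet2dRBD by 0.46, 0.54, 0.55 and 0.44 in replicates 1 to 4 (mean 0.50 ± 0.06, SD). The counting errors of the *Id3* ratios, from 0.060 in Tet2dRBD replicate 2 to 0.219 in Tet2dRBD replicate 1, all exceeded this SD of 0.056. The SD therefore understates the error of the differences. All 4 differences were positive, as for 6.19% of tested genes. With each pair centred they were 0.48, 0.17, 0.61 and 0.50 (mean 0.44 ± 0.19, SD), replicate 2 being the smallest, and all 4 were positive for 5.38% of tested genes. *Id1* was the other member with 1 sign at all 4 numbers, at -0.12, -0.07, -0.21 and -0.23 (mean -0.15 ± 0.08, SD), as 6.89% of tested genes were lower in Tet2 at every number. Centred, the *Id1* differences were -0.09, -0.43, -0.15 and -0.17, and 9.14% of tested genes were lower at every number. The differences of *Stat3* ran from -0.33 to 1.16 and those of *Socs3* from -0.38 to 0.72, both with replicate 2 as the highest. *Id2*, low in both lines, differed by 0.06 ± 0.24 (SD).

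Between Tet1 and Tet2, edgeR over all pairs called none of the 10 members and no gene at all, with 0 members and 517 genes at an unadjusted p under 0.05. All Tet1 pairs are in library set 3 while the Tet2 pairs span the 3 sets, so line and set are mixed in this fit. DESeq2 and limma called none of the members, and limma on log2(TPM + 1) found 1 member at an unadjusted p under 0.05. *Id3* again had the lowest p, with an IP effect lower in Tet1 by a log2 value of -0.46 (SE 0.24, adjusted p = 0.940). Within library set 3 alone, with 2 pairs of each line, 314 of 13379 genes passed with edgeR. *Id3* was the 1 member among them, at -0.64 (adjusted p = 0.0498), and 5 members had an unadjusted p under 0.05. This comparison and the one above share the Tet2 libraries.

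Outside the members, the other 85 genes of a LIF and BMP pathway list were examined, of which 78 were tested. In Tet2 IP, 8 passed higher and 9 lower, where 33.1% of all genes passed, with a list median of 0.09 against 0.00 over all genes. In Tet2dRBD IP, 8 passed higher and 5 lower, where 19.5% of all genes passed, with medians of 0.00 and -0.02, and in Tet1 IP 2 passed higher (*Bmpr2* and *Tcf4*) and 1 lower (*Klf5*), where 5.9% of all genes passed, with medians of -0.04 and -0.04. With limma on log2(TPM + 1) the Tet2 split was 33 higher and 0 lower, the Tet2dRBD split 19 and 0, and the Tet1 split 3 and 0, so the lower calls of the list did not hold on that scale. All genes shifted there too, with 4801 higher and 1113 lower in Tet2, 3224 and 629 in Tet2dRBD, and 492 and 144 in Tet1.

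Of the BMP receptors besides *Bmpr1a*, which was not called, 3 of 4 tested genes were higher in Tet2 IP, where 14.6% of all genes were. In Tet2dRBD IP 2 of 4 were higher (*Bmpr2* and *Acvr2a*), where 1014 of 13710 genes were. In Tet1 IP 1 of 4 was higher (*Bmpr2*), where 373 of 13710 genes were. This role was singled out after its values were seen. *Acvr1*, a type I BMP receptor like *Bmpr1a*, stood at 0.39 in Tet2 (SE 0.12, adjusted p = 0.0245), and the other calls, *Bmpr2* and *Acvr2a*, had mean input levels of 0.347 and 0.847 TPM. Of the BMP targets besides the members, *Id4*, *Msx2* and *Hey1*, 3 of 5 tested genes with mean inputs of 3.51, 1.64 and 2.45 TPM, were lower in Tet2 IP, where 18.5% of all genes were. *Dusp9* and *Msx1* stood at 0.12 and 0.38 there and did not pass, and in Tet2dRBD IP *Id4* and *Hey1* were lower, where 1660 of 13710 genes were. Of the STAT factors, SMADs and BMP ligands, none of 5, 3 and 7 tested passed in any line. Over all genes 33.1% passed in Tet2 IP, 19.5% in Tet2dRBD IP and 5.9% in Tet1 IP, and *Bmp1* came near in Tet2 (edgeR, adjusted p = 0.0522). These small roles were also picked out after their values were seen.

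Among listed genes with a mean input of at least 5 TPM that passed the threshold, the highest IP value was that of *Pim3* in Tet2, a kinase gene activated by Stat3. It rose in Tet2 IP by 1.12 (SE 0.13, adjusted p = 0.000233) and in Tet2dRBD IP by 0.66 (SE 0.13, adjusted p = 0.00634). Its per-pair log2(IP/input) was 0.80 and 0.82 in Tet1, 1.63, 1.42, 1.36 and 1.34 in Tet2, and 0.76, 0.48, 1.26 and 1.23 in Tet2dRBD, so that all Tet2 pairs lay above all others. That holds for 1.3% of tested genes between Tet2 and Tet2dRBD. It had the lowest p of the list for that difference (log2 0.46, SE 0.18, adjusted p = 1). *Ptpn11*, the phosphatase that links the receptor to the MAP kinase pathway, stood at 0.67 in Tet2 and 0.51 in Tet2dRBD.

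On the low side, the Stat3 target and pluripotency factor gene *Klf5* passed with edgeR in all 3 lines, at -0.64 in Tet1 (adjusted p = 0.0479), -0.55 in Tet2 (adjusted p = 0.00542) and -0.57 in Tet2dRBD (adjusted p = 0.00900). With limma on log2(TPM + 1) it passed lower in none. On the TPM scale all its pairs lay below input, from -0.52 to -0.45 in Tet1 and -0.43 to -0.13 in Tet2. In Tet2dRBD they stood at -0.05, -0.93, -0.08 and -0.10, so that replicate 2 was far below the rest. *Cntfr*, a receptor subunit that pairs with Lifr and gp130, stood at -0.67 in Tet2 and -0.43 in Tet2dRBD, and *Pias2*, of the family of STAT inhibitors, at -0.39 in both. On the TPM scale the *Pias2* pairs had no common sign, with 0.64, 0.22, -0.17 and -0.24 in Tet2 and 0.42, 0.12, -0.09 and -0.39 in Tet2dRBD. *Cntfr* lay below input in all Tet2 pairs (-0.38 to -0.22) and on both sides of it in Tet2dRBD (-0.73 to 0.17). *Skil*, which encodes a SMAD co-repressor, rose in Tet2dRBD IP by 0.34 (adjusted p = 0.0415).

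**Figure D5:**
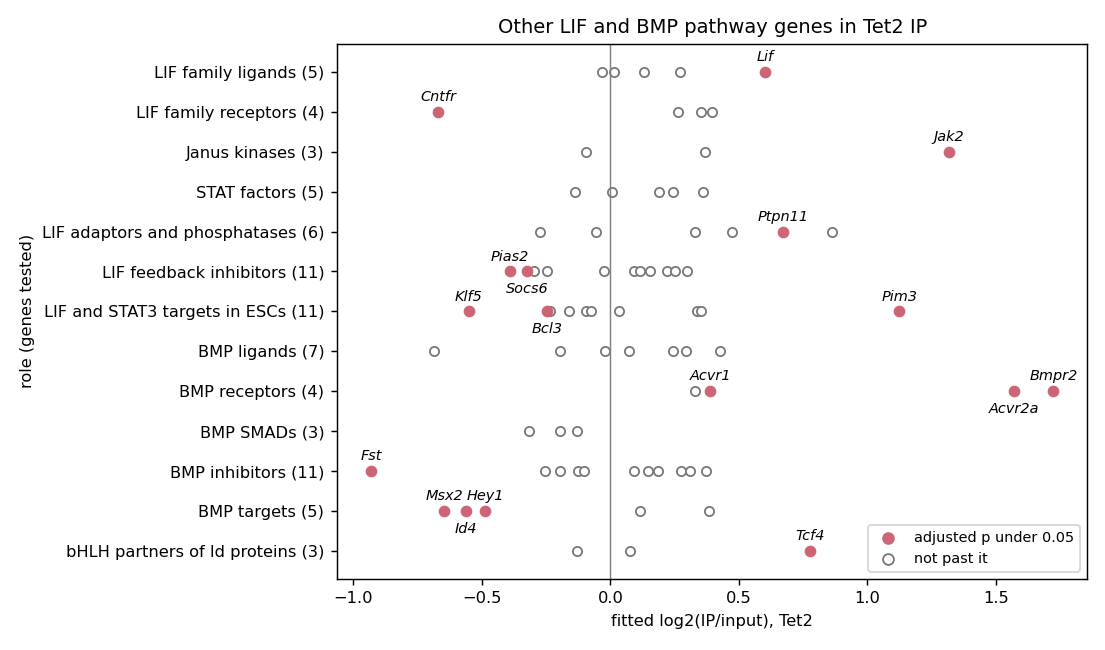
Fitted log2(IP/input) in Tet2 of the 78 other pathway genes tested, 1 point a gene, grouped by role with the number tested in brackets. Filled and named points passed an adjusted p of 0.05 with edgeR (8 above and 9 below 0).

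In the inputs, 4 of 77 tested list genes outside the members were higher in Tet2dRBD than in Tet2 and 0 lower. Over all 13310 genes 3.14% passed, 180 higher and 238 lower. The 4 list genes were the Stat3 targets *Gbx2* (log2 0.87, adjusted p = 0.0106) and *Myc* (0.86, adjusted p = 0.00278) and, at mean inputs of 2.70 and 0.656 TPM, *Bmp1* and *Bmp2*. Without the block, or with the replicate block by number, 0 list genes passed. In Tet1 inputs 15 of 77 tested were higher and 11 lower than in Tet2, where 31.5% of all genes differed, *Skil* (log2 1.20), *Myc* (1.01) and the MAP kinase phosphatase gene *Dusp9* (1.00) among the higher and the naive pluripotency factor genes *Tbx3* (-1.07) and *Tfcp2l1* (-0.87) and the ligand gene *Gdf3* (-0.48) among the lower.

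The members differed in transcript features that the choice of genes did not use. *Id1* (934 bases), *Id2* (1270) and *Id3* (1278) had the shortest annotated transcripts, and *Lifr* the longest with 9655 bases. These gencode vM1 transcripts, used for all features here, are not those counted, whose lengths were 953 bases for *Id3* and 8570 for *Lifr*. GC content ran from 41.3% in *Bmpr1a* and 42.4% in *Id2* to 58.7% in *Socs3*, and *Id1* and *Id3* stood at 55.3% and 55.6%. The pyrimidine share ran from 46.3% in *Bmp4* to 52.3% in *Id3*, against a median of 49.3% over 13109 transcripts. *Id3* and *Id2*, with 52.3% and 51.3% pyrimidines, had opposite IP effects in Tet2, and a relation of IP effect to composition was not tested.

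The genes whose log2(IP/input) ran most like that of 4 members over the 10 pairs were found among 8457 genes with a mean input of at least 5 TPM, by the root mean square difference. For *Lifr* these were *Dhx15* (0.107), *Adam9* (0.121) and *B3galnt2* (0.122), where the median over all candidates was 0.580. For *Stat3* they were *Zdhhc8* (0.074), *Bap1* (0.075) and *Lysmd1* (0.075), and for *Socs3* *Cdk18* (0.061), *Ppp1r37* (0.062) and *Sec14l1* (0.064). For *Id1* they were *Dhrs11* (0.094), *9130401M01Rik* (0.106) and *Ppp1ca* (0.109). No other member was among them, and the pairs share their libraries, so no test was made of this likeness.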

How the data were processed

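Per the labels and the study's methods, RNA was precipitated with anti-Flag from tagged ESCs and sequenced beside total input RNA. The authors used Bowtie2 and RSEM with mm9 (versions are not given in the sources used here) and deposited expected counts per gene, not normalized, and other values: TPM to which 1 had been added, transcript lengths and effective lengths. FPKM was not used. TPM was the deposited value minus 1.

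Expected counts were rounded and fitted with edgeR 4.0.16 (TMM, 1 CPM in at least 2 libraries, quasi-likelihood) over 20 libraries, with a block per pair and an IP effect per line. The 10 inputs were fitted with the library set as a block. P-values were adjusted by Benjamini-Hochberg over all genes (threshold 0.05). The SE was derived from the F statistic of each fitted value. The fits were tested on simulated data. Pairs rest on the shared replicate numbers; deviations of same-numbered IP and input from their group means correlated at 0.614 to 0.862 in Tet2, 0.578 to 0.849 in Tet2dRBD and 0.184 in Tet1, a weak value that 2 pairs share by construction. Replicates 3 and 4 also correlated across numbers (0.749 and 0.779 in Tet2, 0.583 and 0.686 in Tet2dRBD). Alternatives were DESeq2 1.42.0, limma 3.58.1 on log2(TPM + 1) or log2(TPM + 0.1), other size factors, no filter, no block, library set 3 alone, replicates 3 and 4 merged, and leaving out each pair. Positions and sequences come from gencode vM1 and the mm9 genome.

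Named genes are the members, up to 3 pathway genes per direction and fit with the largest values past the threshold at 5 TPM or more, the list gene with the lowest p for Tet2 minus Tet2dRBD, and the 3 genes most like *Lifr*, *Stat3*, *Socs3* and *Id1*; further names come from small counts, after their values were seen. The members and lists were chosen with earlier results of these data known.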

Additional observations from a re-analysis of the deposited data

Results flagged for a closer look

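In each group of 4 values of a member, 60 groups in all, the value farthest from the rest was set against Dixon's 95% limit, which chance passes in about 1 of 20 groups. It was passed by 8, and all 8 were TPM values of replicate 1, which is library set 1; none was a log2(IP/input). In Tet2 IP, *Lifr* stood at 7.61, *Id1* at 27.2 and *Id2* at 12.4 TPM. In Tet2 input, *Jak1* stood at 11.5 and *Id1* at 34.0 TPM. In Tet2dRBD IP, *Jak1* stood at 24.6, *Socs3* at 249.6 and *Id3* at 7.0 TPM.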

How the results depend on the processing

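Over the alternatives, the members were refitted 1300 times. Of these values 1240 kept their side of the threshold, 40 passed it newly, 18 no longer passed it, and 2 passed with the opposite sign, both *Il6st* in library set 3 alone (-0.31 in Tet2 and -0.22 in Tet2dRBD). Signs also changed in 103 values that passed on neither side. The cause of these changes was not tested.

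Members called in Tet2 IP, 3 at first, came to 1 without the replicate block, 6 and 6 with limma on log2(TPM + 1) and log2(TPM + 0.1), 5 in library set 3 alone, 1 with library set 1 left out and 2 to 4 leaving out each pair. Over all genes, 4540 of 13710 passed at first, 375 without the block and 5914 and 5933 with limma. In library set 3 alone 6670 of 13379 passed, with set 1 left out 2822 of 13490, and leaving out each pair 2690 to 5376. In Tet2dRBD IP, 1 at first, they came to 0 without the block, 2 and 2 with limma, 4 in library set 3 alone and 1 in every fit that left out a pair. Over all genes, 2674 passed at first, 46 without the block, 3853 and 4009 with limma and 6568 of 13379 in library set 3. In Tet1 IP, 0 at first, they came to 1 with DESeq2, 5 in library set 3 alone, 1 with library set 2 left out and 0 to 1 leaving out pairs. Over all genes the Tet1 IP calls were 809 at first, 1578 with DESeq2, 6260 of 13379 in library set 3 and 2855 with set 2 left out. For Tet1 minus Tet2 there was 1 member in library set 3 alone, where 314 of 13379 genes passed. For the difference between Tet2 and Tet2dRBD, and between Tet1 and Tet2, every fit that left out a pair gave 0. Among inputs, Tet2dRBD against Tet2 gave 2 with DESeq2, 1 without the filter, 1 with limma and 0 to 2 leaving out inputs. Over all genes the first 3 of these fits called 858, 423 and 590, against 418 at first. Tet1 against Tet2 gave 0 members without the block, 2 with DESeq2 and 0 to 2 leaving out Tet2 or Tet2dRBD inputs. There, 54 genes passed without the block and 4348 with DESeq2, against 4191 at first.

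The replicate block decided most calls. Without pairing, 375 genes passed in Tet2 IP against 4540, and 46 in Tet2dRBD IP against 2674; *Id2* alone was called in Tet2 and *Bmpr1a* was lost among Tet1 inputs. With the replicate block by number for the Tet2 and Tet2dRBD inputs, 0 members passed, and with the numbers also matched between lines, an alternative added after seeing the data, as was leaving out library sets 1 and 2, *Id3* differed by 0.47 (adjusted p = 0.945, edgeR).

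Other pathway genes called, 17 in Tet2 IP, came to 2 without the block, 33 and 33 with limma, 38 in library set 3 alone, 10 with replicates 3 and 4 merged and 9 to 26 leaving out pairs. From 13 in Tet2dRBD IP they came to 0 without the block, 22 with limma on log2(TPM + 0.1), 35 in library set 3, 5 merged, 5 and 20 with sets 1 and 2 left out and 2 to 13 leaving out pairs. From 3 in Tet1 IP they came to 0 without the block, 9 with DESeq2, 32 in library set 3, 1 merged, 9 with set 2 left out and 0 to 7 leaving out pairs. The calls over all genes moved in the same direction in these fits, leave-out ranges aside. Merged, 3191 of 13610 genes passed in Tet2 IP, 1060 in Tet2dRBD IP and 316 in Tet1 IP. The median log2(IP/input) over members in Tet1, 0.174, was 0.179 with a pseudocount of 0.1 and 0.094 centred. Members above input in every Tet2dRBD pair, 3, came to 0 centred, 9 by means without pairing and 3 to 7 leaving out pairs; in Tet1 leaving out pairs gave 7 to 9 and in Tet2 6 to 7. The lowest expected count of a member was 72.0, for *Id3* in Tet2dRBD input replicate 1, and the counting error of log2(IP/input) ran from 0.02 to 0.22 over members and pairs (median 0.05); for *Id3* in that pair, 0.22, it is near the SD between Tet2dRBD pairs of 0.28.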
